A study of Mus musculus with 9 samples.

Results

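Imprinted genes are the subject here: genes that are read mainly from the maternal or mainly from the paternal chromosome. They were taken from a list of 37 mouse imprinted genes, and an interval of the KDM6A or IgG lists was assigned to a gene when it overlapped the gene's RefSeq span plus 5 kb on each side. Of the 37 genes, 36 were found among 21883 protein-coding genes (Zfp264 was not in the gene table and was dropped), and they fall into 17 imprinted domains. The allele to be silenced is set in the germ line by DNA methylation of a control region, and one control region often governs a whole cluster through a long noncoding RNA or through the insulator protein CTCF. In placenta and embryo, some of these clusters also carry the repressive mark H3K27me3 on the silent copy. KDM6A (also called UTX) removes methyl groups from lysine 27 of histone H3 and belongs to the KMT2C/KMT2D complexes at enhancers. Embryonic stem cells keep most parental imprints, which depend there on ZFP57 and on maintenance DNA methylation.

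Chromatin immunoprecipitation with sequencing was done on mouse embryonic stem cells of the line Sv129, grown in serum with leukemia inhibitory factor. MTX cells received 0.12 µM MTX (methotrexate, an antifolate) for 24 h and carry the label folate deficiency in the genotype field, while control cells are labelled WT and got no MTX. The interval lists compared are those of 2 anti-KDM6A libraries of MTX cells, 2 anti-KDM6A libraries of control cells and 1 anti-IgG library of MTX cells. The labels do not tell whether each library of a group has its own culture. Spread between libraries, and every p-value built on it, may therefore be technical, and control cells have no IgG list among those used here. Each interval holds reads of the immunoprecipitation and reads of a background library. Its fold is the ratio of the 2 counts times 1 constant per library, as the authors deposited it.

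The lists held 24177 and 28976 intervals in MTX libraries 1 and 2, 44838 and 21228 in control libraries 1 and 2, and 22843 in the IgG library. Control library 1 stood apart: its intervals had the fewest immunoprecipitated reads, with a median of 79 against 114 to 130 in the other 4 lists, and the highest median fold, 1.62 against 1.39 to 1.50. Total depth is unknown, because the lists cover only reads inside intervals. In the 52 intervals with identical ends in the IgG and MTX 1 lists, background counts were identical too (52 of 52), so the folds of this pair share a background.

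Imprinted genes had intervals about as often as other genes. Any KDM6A library had one at 27 of 36 members (75.0%, against 61.6% of all protein-coding genes), and at least 3 of the 5 libraries did at 12 (33.3%, against 28.9%). At least 1 interval lay at 13 of 36 members (36.1%) in MTX library 1, at 10 (27.8%) in MTX library 2, at 23 (63.9%) in control library 1, at 13 (36.1%) in control library 2 and at 12 (33.3%) in the IgG library. Over all protein-coding genes the shares were 33.5% and 30.8% in MTX libraries 1 and 2, 47.1% and 26.1% in control libraries 1 and 2, and 27.5% in the IgG library. The members were longer than other genes, with a median span of 38.9 kb against 17.2 kb. Intervals covered 5.98% and 4.83% of the members' windows in the MTX libraries, 7.89% and 4.93% in the control libraries, with 5.26% in IgG. The windows of all protein-coding genes were covered to 4.56% and 5.37% in the MTX libraries, 6.75% and 4.40% in the control libraries, with 4.45% in IgG. When all lists were cut to the length of the shortest, control library 1 reached 14 members in place of 23. The share over all protein-coding genes was not computed for the cut lists, so this count has nothing to be set against.

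**Figure D1:**
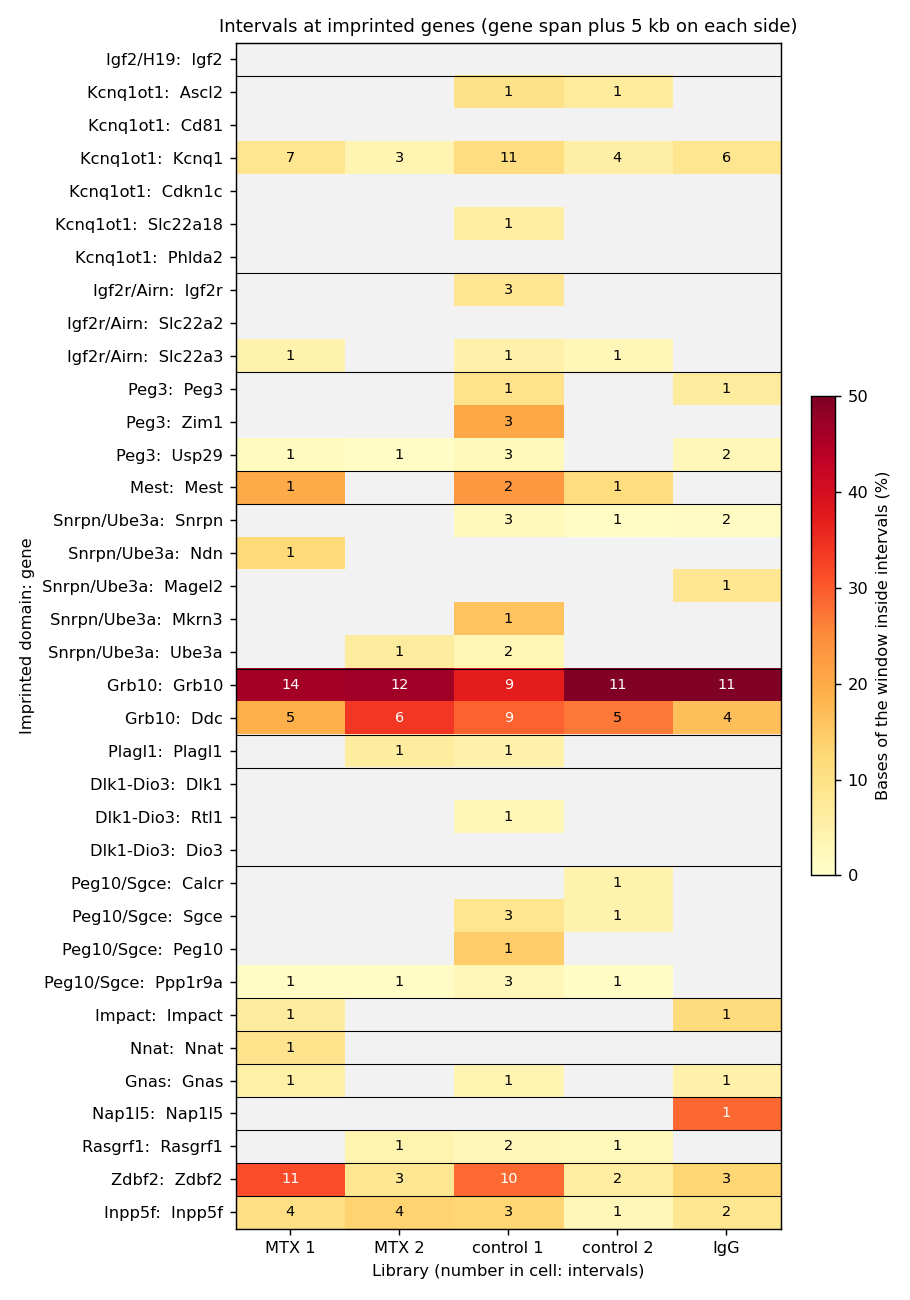
Intervals at the 36 imprinted genes, by domain (rows) and library (columns). Colour gives the share of the gene window (span plus 5 kb on each side) inside intervals, in percent, up to 50 or more; the number in a cell counts the intervals, and grey cells have none. Grb10 and Ddc are covered in every library, IgG included, while most other rows have intervals in control library 1 alone or in a few libraries.

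An interval was present in all 4 KDM6A libraries at 6 of the 36 members (16.7%), against 13.2% of all protein-coding genes. These were Kcnq1, a potassium channel gene, Grb10, which encodes an adaptor that restrains growth signalling, its neighbour Ddc, which encodes aromatic L-amino acid decarboxylase, Ppp1r9a, which encodes the actin-binding protein neurabin, Zdbf2, a zinc finger gene, and Inpp5f, a phosphoinositide phosphatase gene. No interval in any KDM6A library was found at 9 members (25.0%, against 38.4% of all genes): Igf2, Cd81, Cdkn1c, Phlda2, Slc22a2, Magel2, Dlk1, Dio3 and Nap1l5. They include the growth factor gene Igf2, the cell cycle inhibitor gene Cdkn1c, Phlda2, which restrains growth of the placenta, Dlk1, which encodes a membrane protein related to Notch ligands, and Dio3, which encodes an enzyme that inactivates thyroid hormone. Span followed the same order, with a median of 111 kb in the 6 genes with all 4 libraries, 39.5 kb in the 21 genes with 1 to 3 libraries and 4.66 kb in the 9 without. Counting only intervals with a deposited adjusted p under 0.05, 3 of the 6 genes (Zdbf2, Kcnq1 and Grb10) still had all 4 libraries.

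No member had an interval in both MTX libraries and in neither control library, against 1.26% of all genes. In both control and neither MTX library there were 3 members (8.33%, against 2.18% of all genes): Ascl2, which encodes a transcription factor of the placenta, Sgce, which encodes epsilon-sarcoglycan, and Snrpn, which encodes a splicing protein. In each of the 3, control library 1 and control library 2 had their intervals at different places. At Ascl2 on chromosome 7 the control library 1 interval (142967201 to 142968400, fold 1.60) lay within the gene and the control library 2 interval (142973401 to 142977000, fold 1.41) lay beside it. The 3 genes share no site between replicates, so the count describes gene windows and not recovered sites. The count moved with single libraries: it was 10 when control library 2 was left out and 5 when MTX library 1 was left out. The MTX count was 3 without MTX library 2 and 1 without control library 1.

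The promoters that KDM6A intervals touched are shown first, since a control region for imprinting is usually a CpG-rich stretch at a promoter. RefSeq (GRCm38.p6) gave 46 start windows of 300 bases for 30 of the members. Promoter windows of Grb10 and Ddc were the ones that intervals of more than 1 KDM6A library touched, and those of Mest and Zim1 had the highest folds among the rest. Capitals mark TGCCGC on either strand (GCGGCA on the reverse), the hexamer that ZFP57 binds when its CG is methylated, and CCATNTT on either strand, the core read by the factor YY1. Each is printed 5′ to 3′ on the gene's own strand.
Grb10, chr11:12027922-12028221, minus strand: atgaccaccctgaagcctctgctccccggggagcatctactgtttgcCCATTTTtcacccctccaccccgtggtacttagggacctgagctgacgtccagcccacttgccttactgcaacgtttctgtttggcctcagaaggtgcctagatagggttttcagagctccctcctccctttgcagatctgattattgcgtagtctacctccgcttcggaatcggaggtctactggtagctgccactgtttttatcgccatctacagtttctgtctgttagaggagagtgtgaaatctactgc
Ddc, chr11:11898095-11898394, minus strand: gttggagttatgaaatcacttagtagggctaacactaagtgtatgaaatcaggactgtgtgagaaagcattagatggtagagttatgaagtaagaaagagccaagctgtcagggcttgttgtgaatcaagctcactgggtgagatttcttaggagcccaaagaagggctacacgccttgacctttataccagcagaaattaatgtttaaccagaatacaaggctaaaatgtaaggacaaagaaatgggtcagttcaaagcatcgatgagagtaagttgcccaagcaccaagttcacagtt
Mest, chr6:30737800-30738099, plus strand: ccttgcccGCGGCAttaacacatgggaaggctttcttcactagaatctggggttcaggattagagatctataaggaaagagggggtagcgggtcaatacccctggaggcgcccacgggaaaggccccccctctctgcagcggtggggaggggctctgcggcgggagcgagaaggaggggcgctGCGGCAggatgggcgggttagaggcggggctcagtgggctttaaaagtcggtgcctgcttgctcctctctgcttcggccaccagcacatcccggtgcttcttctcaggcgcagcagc
Zim1, chr7:6696383-6696682, minus strand: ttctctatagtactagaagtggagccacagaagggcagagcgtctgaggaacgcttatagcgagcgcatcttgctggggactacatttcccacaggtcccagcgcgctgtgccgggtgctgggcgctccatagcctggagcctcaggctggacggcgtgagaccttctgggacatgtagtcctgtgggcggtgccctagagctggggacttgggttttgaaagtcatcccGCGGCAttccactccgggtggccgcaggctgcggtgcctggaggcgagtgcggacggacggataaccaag

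The Grb10 window met intervals of control library 1 (fold 1.01) and control library 2 (fold 0.84) over its first 21 bases alone, which do not include its 1 CCATNTT, and met no MTX or IgG interval. The Ddc window held neither motif and lay wholly inside intervals of MTX library 2 (fold 0.97) and control library 2 (fold 0.87). None of these 4 folds was more than slightly above 1. The Mest window held 2 copies of TGCCGC and met a control library 1 interval of fold 1.71 at its first base alone. The Zim1 window held 1 copy and lay wholly in a control library 1 interval of fold 1.67.

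TGCCGC was found in 12 of the 46 member windows (26.1%), against 11.6% of 32851 RefSeq start windows of the same length. CCATNTT was found in 6 (13.04%), against 16.1%. The motifs can overlap at a single end base and were counted separately. Member windows were also richer in CG, with a median of 15.5 CG dinucleotides against 7 and a median GC content of 61.5% against 52.7%. Intervals touched 1 and 1 of the 46 member windows in the MTX libraries (2.17% each), 6 and 2 in the control libraries (13.04% and 4.35%) and 2 in the IgG library (4.35%). Over all start windows the shares were 6.17% and 3.14% in the MTX libraries, 8.75% and 2.56% in the control libraries, with 4.35% in IgG.

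The Grb10 domain held the only merged regions at imprinted genes that had intervals of all 4 KDM6A libraries. Merging the intervals of those libraries gave 102 regions at the members, of which 71 (69.6%) came from 1 library, 18 (17.6%) from 2, 6 (5.88%) from 3 and 7 (6.86%) from all 4. Of all 82390 merged regions, 75.8% came from 1 library, 16.4% from 2, 5.23% from 3 and 2.57% from all 4. All 7 overlapped the window of Grb10 or Ddc on chromosome 11, and all 7 also overlapped an IgG interval. A merged region joins touching or overlapping intervals, so its libraries need not all share a base. MTX library 1 and control library 1 shared none in 11837801 to 11867800. MTX library 2 and control library 2 had no interval of 11792601 to 11813400 in the Ddc window. MTX library 1 and control library 1 had none of 12038001 to 12079800 in the Grb10 window. Over the whole genome, 74.9% of the 2116 regions found in all 4 libraries overlapped an IgG interval. In the other 16 domains there were 86 regions and none was found in all 4 libraries, where 2.57% of all regions were.

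Intervals tiled Grb10 and Ddc at low fold. They covered 34.2% and 40.9% of the domain in the MTX libraries, 33.5% and 43.7% in the control libraries, with 35.0% in IgG. Their median fold was 1.08 and 1.11 in the MTX libraries, 1.17 and 1.10 in the control libraries, with 1.14 in IgG, so IgG lay among the KDM6A libraries on both measures. Background reads were dense there: the domain's intervals had a median of 36.0 and 37.7 background reads per kb in the MTX libraries, 33.7 and 34.0 in the control libraries, with 36.2 in IgG. Intervals on other autosomes than chromosome 11 had 22.6 to 24.6, and those of chromosome 11 as a whole had 28.6 to 32.8. The part of the dense background in these intervals was not tested.

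At Grb10, 1941 and 2541 immunoprecipitated reads lay in intervals of MTX libraries 1 and 2, against 1248 and 2657 in control libraries 1 and 2. The summed fold over background was 1.14 and 1.14 in the MTX libraries, 1.19 and 1.09 in the control libraries, with 1.09 in IgG. The groups overlapped. At Ddc the summed fold was 0.97 and 1.09 in the MTX libraries, 1.10 and 1.01 in the control libraries, with 1.07 in IgG, and the groups overlapped again. The domain held 19 and 18 intervals in the MTX libraries, 18 and 16 in the control libraries, with 15 in IgG. An interval counted with all its reads, also where it reached out of the gene window. At Grb10, 509 of the 2541 reads of MTX library 2 came from 1 such interval (12040201 to 12054600). At Ddc, 346 of the 1243 reads of control library 1 came from 1 (11798401 to 11809200). These sums are thus partly from outside the windows.

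In the Kcnq1ot1 domain on chromosome 7, intervals lay mostly within Kcnq1 itself. The paternal copy of this cluster is silenced by Kcnq1ot1, a noncoding RNA made from a promoter inside Kcnq1. Kcnq1 held 7 and 3 intervals in the MTX libraries, 11 and 4 in the control libraries, with 6 in IgG. The 83.4 kb of Kcnq1 that Kcnq1ot1 also spans (143213111 to 143296547) were covered to 22.4% and 5.62% in the MTX libraries, 22.5% and 4.31% in the control libraries, with 25.0% in IgG. The rest of the gene was covered to 4.10% and 3.43%, to 7.46% and 5.41%, and to 3.34% in the same libraries. The denser stretch was thus seen in the KDM6A libraries of replicate 1 of both treatments and in IgG, with the IgG library highest. The IgG library also carries the label of replicate 1, so a replicate 1 pattern and an IgG pattern cannot be told apart here. Both genes lie on this DNA, so reads from Kcnq1 and from Kcnq1ot1 chromatin are the same reads.

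The highest fold in Kcnq1 was 3.53 in control library 1 at 143422801 to 143424600, with 72 immunoprecipitated and 27 background reads (95% interval of the fold 2.24 to 5.71). Control library 2 had an interval over the same place with fold 0.94, and the MTX and IgG libraries had none. The region 143210001 to 143215000, at one end of Kcnq1ot1, was found in both MTX libraries (folds 1.16 and 1.49) and in neither control library, and the IgG library overlapped it with 2 intervals of folds 1.42 and 1.15. Slc22a18, an organic cation transporter gene, had 1 interval, in control library 1 with fold 1.07. Cdkn1c, Phlda2 and Cd81 in the same cluster had none in any of the 5 libraries.

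Zdbf2, which is expressed from the paternal copy, had 11 and 3 intervals in the MTX libraries, 10 and 2 in the control libraries, with 3 in IgG. They covered 31.3% and 8.21% of its window in the MTX libraries, 28.3% and 6.12% in the control libraries, with 12.7% in IgG. As at Kcnq1, coverage was high in replicate 1 and low in replicate 2 of either treatment. The summed fold was 1.39 and 1.48 in the MTX libraries, 1.23 and 1.52 in the control libraries, with 1.38 in IgG, and the groups overlapped. Of its merged regions, 2 were found in 3 of the 4 KDM6A libraries. One of these (chromosome 1, 63232801 to 63240800) had folds 1.49 and 1.80 in MTX libraries 1 and 2 and 1.75 in control library 2, with no interval in control library 1 or IgG. The MTX library 2 interval there only touched that of MTX library 1 and shared no base with any other KDM6A library.

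Inpp5f on chromosome 7, whose brain isoform is read from the paternal copy, had the largest difference between MTX and control among the members tested. It held 4 and 4 intervals in the MTX libraries, 3 and 1 in the control libraries, with 2 in IgG. The summed reads were 419 immunoprecipitated over 218 background in MTX library 1 and 443 over 375 in MTX library 2, against 286 over 320 in control library 1 and 90 over 109 in control library 2. That gave folds of 2.06 and 1.32 in the MTX libraries against 1.18 and 0.86 in the control libraries, and both MTX values lay above both control values. The IgG library, made from MTX cells, had a fold of 1.65, between the MTX values.

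At Inpp5f the libraries had intervals in 7 merged regions, none of them found in all 4. MTX library 1 had a narrow interval at 128639601 to 128640800 with 75 over 20 reads and fold 4.02 (95% interval 2.43 to 6.96, adjusted p 2.09e-21 as deposited), in the top 0.97% of its list. No other library had an interval there. At 128615801 to 128620200 both MTX libraries had intervals (folds 2.28 and 1.45) and neither control library did, and the IgG library covered the same place with fold 1.57. At 128680201 to 128683200 the folds were 1.91 and 1.60 in MTX libraries 1 and 2, 0.86 in control library 2 and 1.74 in the IgG library, with no interval in control library 1.

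The other 4 regions of Inpp5f did not all run the same way. MTX library 2 and control library 1 met at 128628601 to 128634000 (folds 1.34 and 1.16) and at 128647401 to 128653400 (folds 1.05 and 1.25). MTX library 1 alone had 128660001 to 128664600 (fold 1.70), and control library 1 alone had 128611001 to 128614800 (fold 1.15).

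Across the 2887 genes with intervals in all 4 KDM6A libraries, the edgeR quasi-likelihood test called none between MTX and control at an adjusted p under 0.05 (0% of the genes tested, 118 at an unadjusted p under 0.05). DESeq2 called 0 (60 unadjusted) and limma 0 (124 unadjusted). The log2 fold change, MTX minus control, was 0.70 ± 0.23 (SE) at Inpp5f, with an adjusted p of 0.953 by edgeR, and Inpp5f was among those 118 genes. Inpp5f was the only member whose MTX libraries both lay above the control libraries, as did 10.7% of all genes tested. At Ppp1r9a it was −0.22 ± 0.34 (adjusted p = 0.992 by edgeR) with both MTX libraries below both control libraries, as in 20.9% of all genes tested, and its intervals shared no place between any 2 libraries. The other 4 members had log2 fold changes of 0.08 ± 0.15 (Zdbf2), 0.04 ± 0.14 (Kcnq1), 0.01 ± 0.11 (Grb10) and −0.03 ± 0.13 (Ddc), each smaller than its error. The median over all genes tested was −0.03. Outside Grb10 and Ddc these values compare reads summed over intervals that lie mostly at different places in the libraries. At Ddc the intervals overlapped in part, but no stretch of its window lay in intervals of all 4 KDM6A libraries. Outside Grb10 the values are therefore no fold change of a common stretch.

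Single libraries carried much of the Inpp5f value. Its log2 fold change was 0.36 without MTX library 1 and 0.51 without control library 2, against 0.99 without MTX library 2 and 0.97 without control library 1. The adjusted p by edgeR was between 0.226 and 0.999 in those 4 fits, in which a lone library is assumed to vary like those of the other group. At Ppp1r9a the value was −0.40 without MTX library 1, −0.047 without MTX library 2, and −0.66 without the background offset. The sign of Inpp5f and of Ppp1r9a was the same in every alternative that gave a value. No value could be had for Inpp5f without the intervals that overlap IgG, because control library 2 then had none there.

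**Figure D2:**
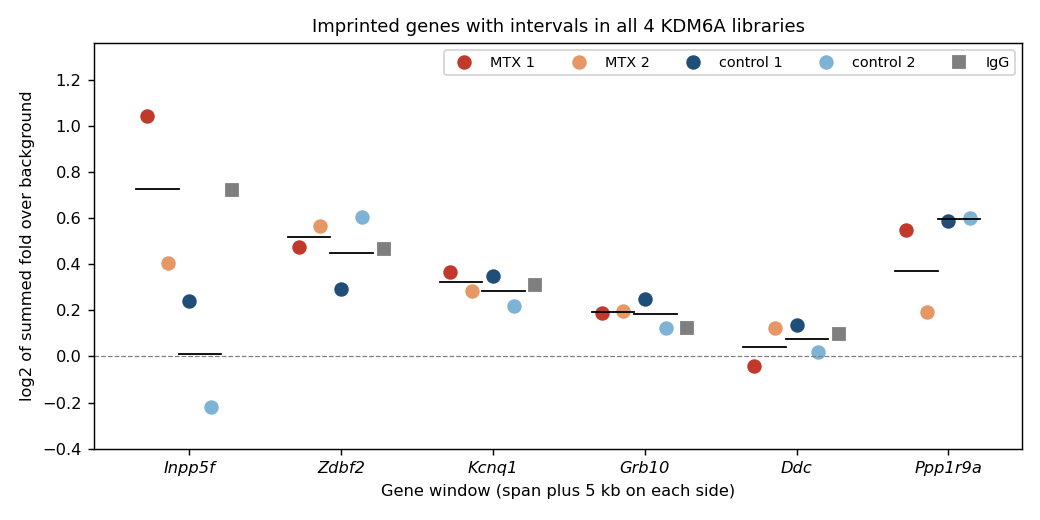
Summed fold over background of the 6 imprinted genes with intervals in all 4 KDM6A libraries, as log2 (vertical axis), one point per library; short lines are the mean of the 2 libraries of a treatment, MTX left and control right, and the grey square is the IgG library. Both MTX points lie above both control points at Inpp5f, where IgG lies between the MTX points, and the groups overlap at Zdbf2, Kcnq1, Grb10 and Ddc.

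The same test on the 2116 merged regions found in all 4 libraries called none (0%, 85 at an unadjusted p under 0.05; DESeq2 0 and 50, limma 0 and 70). The 7 regions at Ddc and Grb10 had log2 fold changes between −0.34 and 0.31. Intervals of different libraries within a region need not share bases. In 1 of them (11930801 to 11942400, at one end of Grb10) both MTX libraries lay above both control libraries, as in 14.6% of all regions, with log2 folds of 0.33 and 0.30 in MTX cells and 0.14 and −0.11 in control cells. In 1 other (11948201 to 11956000, inside Grb10) both lay below, as in 16.1% of all regions, with log2 folds of 0.19 and 0.12 in MTX cells and 0.70 and 0.26 in control cells. The log2 fold change of the first was 0.31 ± 0.24 and of the second −0.34 ± 0.31, with an adjusted p of 1.00 for each by edgeR. Without the background offset the values were −0.47 and −0.093. Leaving out single libraries gave 0.17 to 0.43 for the first and −0.55 to −0.10 for the second, with −0.10 without control library 1 and −0.55 without control library 2.

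In the Snrpn/Ube3a domain of chromosome 7, the region linked in humans to Prader-Willi and Angelman syndromes, all KDM6A intervals at Snrpn came from control cells. Control library 1 had 3, with folds 3.34 (60012801 to 60014000, 48 over 19 reads), 1.62 (60126201 to 60132600) and 4.20 (60165401 to 60167400, 54 over 17 reads), and control library 2 had 1 with fold 1.75 (60426601 to 60430600). Neither MTX library had one, and the IgG library had 2 with folds 2.04 and 1.49 at other places. The interval of fold 4.20 (95% interval 2.40 to 7.73) had the highest fold at any member, and no 2 libraries met at the same place in this gene. Among the neighbours, Ndn, Mkrn3 and Ube3a had KDM6A intervals in 1 or 2 libraries each, with folds between 1.30 and 3.17. Ndn, which encodes the growth suppressor necdin, had its interval in MTX library 1, Mkrn3, a makorin ring finger gene, in control library 1, and Ube3a, which encodes a ubiquitin ligase, 1 in MTX library 2 and 2 in control library 1. The MTX library 2 interval of Ube3a overlapped 1 of the control library 1 intervals in the region 59254001 to 59260000. Magel2 had an IgG interval and no KDM6A interval.

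In the Peg3 domain of chromosome 7, the deubiquitinase gene Usp29 held 1 and 1 intervals in the MTX libraries (folds 1.53 and 1.75), 3 and 0 in the control libraries (folds 1.48, 4.06 and 3.01) and 2 in the IgG library (folds 1.33 and 1.32). The interval of fold 4.06 (6820201 to 6821400) had 46 over 15 reads, with a 95% interval of 2.22 to 7.82. No 2 libraries had an interval at the same place. Peg3 and Zim1, a pair of zinc finger genes read from opposite parental copies, had KDM6A intervals in control library 1 alone, with folds between 1.31 and 1.67, and 1 of these lay in the windows of both genes.

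Rasgrf1 on chromosome 9, which encodes an exchange factor for Ras, had 1 interval in MTX library 2 (fold 1.22, 89949401 to 89954600) and none in MTX library 1. In control cells it had 2 intervals in library 1 with folds 2.34 and 3.00, and 1 in library 2 with fold 2.48 (89938201 to 89941200, 119 over 50 reads). The fold was thus higher in both control libraries than in the MTX library with an interval, at sites that did not overlap, and IgG had none. The last of these intervals stood in the top 2.62% of its list, and its fold had a 95% interval of 1.77 to 3.52.

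At Mest on chromosome 6, a gene read from the paternal copy that encodes a member of the alpha/beta hydrolase fold family, MTX library 1 had 1 interval at the gene's lower end (30728601 to 30733600, fold 1.52) and MTX library 2 had none. Both control libraries had an interval at the other end of the gene, forming the region 30747801 to 30751400 with folds 1.39 and 1.21. Control library 1 had another inside the gene with fold 1.71. This region and the one of Kcnq1 at 143420001 to 143425600 were the only 2 of 102 that both control lists held and both MTX lists lacked, and neither overlapped an IgG interval. In both MTX and neither control library there were 3, at Kcnq1, Inpp5f and Ddc, and all 3 overlapped an IgG interval. The MTX ones are 2.94% of the members' regions, against 2.04% of all merged regions, and the control ones 1.96%, against 2.64%. Over all merged regions, 25.5% of the MTX ones and 22.0% of the control ones of this kind overlapped an IgG interval.

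In the Igf2r/Airn domain of chromosome 17, Igf2r, the receptor that clears the growth factor IGF2, had 3 intervals in control library 1 with folds 1.49, 1.71 and 1.71 and none in the other 4 libraries. The pair of fold 1.71 overlapped the stretch shared with the noncoding RNA Airn, which silences the paternal copy of Igf2r. Slc22a3, an organic cation transporter gene, had 1 interval each in MTX library 1 (fold 1.40), control library 1 (fold 1.59) and control library 2 (fold 1.25), at 3 different places.

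In the Peg10/Sgce domain of chromosome 6, Sgce had 3 intervals in control library 1 (folds 2.68, 1.58 and 1.52) and 1 in control library 2 (fold 1.23), with none in MTX or IgG. The third of them also covered part of Peg10, a gene derived from a retrotransposon. Calcr, the calcitonin receptor gene, had 1 interval, in control library 2. Ppp1r9a had 1 interval in MTX library 1 (fold 1.46), 1 in MTX library 2 (fold 1.14), 3 in control library 1 (folds 1.76, 1.59 and 1.23) and 1 in control library 2 (fold 1.52), none of them at the same place, and none in IgG. Its count of all 4 libraries therefore came from 6 separate sites over 263 kb.

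The smaller domains had few intervals. Gnas on chromosome 2, the gene of the stimulatory G protein alpha subunit, had 1 each in MTX library 1 (fold 1.41), control library 1 (fold 1.80) and IgG (fold 1.44), at 3 places. Rtl1 of the Dlk1-Dio3 domain on chromosome 12, derived from a retrotransposon, had 1 in control library 1 with fold 2.55 (52 over 27 reads). Plagl1 on chromosome 10, a zinc finger gene that limits growth, had 1 in MTX library 2 (fold 1.39) and 1 in control library 1 (fold 1.15). Impact had 1 in MTX library 1 (fold 1.00) and 1 in IgG (fold 1.23), and Nnat, the neuronatin gene, had 1 in MTX library 1 (fold 1.01). Nap1l5 had its only interval in IgG, with fold 1.52 over its start.

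**Figure D3:**
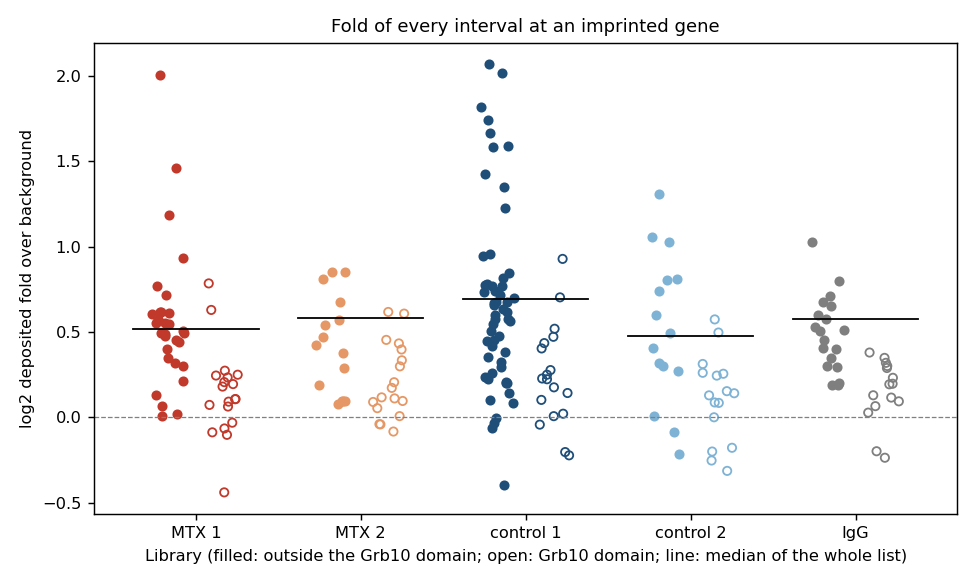
Log2 of the deposited fold over background (vertical axis) of every interval at an imprinted gene, by library; filled points lie outside the Grb10 domain, open points inside it, and the line is the median of all intervals of that library's list. Most points lie at or under the line, and of the 8 intervals with fold 3 or more, 7 are in control library 1.

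Folds at imprinted genes were low for these lists. The median fold at members was 1.27 and 1.22 in the MTX libraries, 1.42 and 1.20 in the control libraries, with 1.24 in IgG, against 1.43 and 1.50, 1.62 and 1.39, and 1.49 over the whole lists. Outside the Grb10 domain it was 1.42 and 1.34 in the MTX libraries, 1.53 and 1.41 in the control libraries, with 1.42 in IgG. The lists without chromosome 11 had medians of 1.47 and 1.56 in the MTX libraries, 1.66 and 1.45 in the control libraries and 1.54 in IgG, above the members in each library. An adjusted p under 0.05 was recorded for 31 of 49 and 17 of 33 member intervals in the MTX libraries, 50 of 73 and 20 of 31 in the control libraries, and 24 of 34 in the IgG library. These are 63.3% and 51.5% in the MTX libraries, 68.5% and 64.5% in the control libraries and 70.6% in IgG, below the 78.5% to 84.9% of the whole lists. Outside the Grb10 domain the share was above that of the whole list in MTX library 1, control library 2 and IgG. It was below in MTX library 2 and control library 1. These whole lists include chromosome 11, and their share without it was not computed, so the 2 sides are not alike. Fold 2 or more was reached by 6.12% and 0% of member intervals in the MTX libraries, against 13.5% and 18.2% of the lists. In the control libraries it was 13.7% and 9.68%, against 27.5% and 10.6%, and in IgG 2.94%, against 16.6%. Fold 3 or more was reached by 1 of 49 in MTX library 1 (2.04%, against 1.80% of its list) and 7 of 73 in control library 1 (9.59%, against 6.50%), and by none in the other 3 libraries. Of those 8 intervals, 1 overlapped an interval of another KDM6A library.

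Most intervals assigned to members lay in gene bodies. Only intervals in gene windows were counted, and with a median span of 38.9 kb bodies offered more room than ends. The same split over all genes was not computed. At an end of a member (within 1 kb of either end) there were 2 and 1 intervals in the MTX libraries, 9 and 6 in the control libraries, with 4 in IgG, whereas 42 and 31, 61 and 23, and 28 lay in gene bodies. IgG overlapped 22 of 49 and 19 of 33 intervals in the MTX libraries and 18 of 73 and 13 of 31 in the control libraries, that is 44.9%, 57.6%, 24.7% and 41.9%, against 24.9%, 23.2%, 18.4% and 25.6% over the whole lists. Outside the Grb10 domain it overlapped 7 of 30 (23.3%) and 5 of 15 (33.3%) in the MTX libraries and 6 of 55 (10.9%) and 2 of 15 (13.3%) in the control libraries. In the lists without chromosome 11 IgG overlapped 20.80% and 19.003% in the MTX libraries and 15.59% and 20.81% in the control libraries. The members' shares thus lay above these in both MTX libraries and below in both control libraries, which was not tested. Outside the Grb10 domain, 5 of the 30 intervals of MTX library 1 (16.7%) overlapped one of MTX library 2, against 21.2% of its list without chromosome 11. Of the 55 of control library 1, 2 (3.64%) overlapped one of control library 2, against 12.2% of its list without chromosome 11. Across treatments, 9 of the 30 of MTX library 1 overlapped one of control library 1 (30.0%, against 28.2%).

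In 48 other imprinted genes, noncoding ones included, 19 and 20 had an interval in the MTX libraries, 27 and 15 in the control libraries, with 15 in IgG. Their median span was 39.6 kb, against 17.2 kb for all protein-coding genes. Of all protein-coding genes, 33.5% and 30.8% had one in the MTX libraries, 47.1% and 26.1% in the control libraries and 27.5% in IgG. All 4 KDM6A libraries had one at 13.2% of all protein-coding genes, and none of the 4 at 38.4%. Both MTX and neither control library had one at 1.26%, and the reverse held at 2.18%. All 4 KDM6A libraries had one at 9 of the 48: Kcnq1ot1, Rian, Copg2, Zrsr1, Commd1, Gab1, Cobl, Smoc1 and Adam23, and IgG had one at each of the 9. Cobl, the neighbour of Grb10 on chromosome 11, held the most, with 34 and 23 in the MTX libraries, 35 and 27 in the control libraries, with 23 in IgG. None of the 4 KDM6A libraries had an interval at 16 of the 48, H19 among them. Slc38a4, an amino acid transporter gene, had intervals in both MTX libraries (4 and 1) and in neither control library, and IgG had 2 there. Herc3 had 1 and 1 in the control libraries and none in the MTX libraries, and IgG had 1.

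Of 25 genes for factors that set or keep imprints, 16 and 12 had an interval in the MTX libraries, 15 and 9 in the control libraries, with 11 in IgG. Their median span was 38.3 kb, and the shares over all protein-coding genes are those given for the 48 genes. All 4 KDM6A libraries had one at 6 of the 25: Ctcf, the insulator protein gene, Arid4a, Arid4b, Zfp42 (also called Rex1), Smchd1 and Nlrp2. Of these 6, Zfp42 alone had no IgG interval, with 1 interval in each of the 4 KDM6A libraries. Dppa3 (Stella), which shields the maternal genome from demethylation after fertilization, had 1 and 1 intervals in the MTX libraries and none in the control or IgG libraries. It was the only 1 of the 25 in both MTX and neither control library, as were 1.26% of all protein-coding genes. None of the 25 showed the reverse. In 5 of the 25 there was no KDM6A interval: Zfp445, Dnmt3a, Uhrf1, Ctcfl and Nlrp5.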

How the data were processed

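The authors deposited 1 list of intervals per immunoprecipitated library, and 5 such lists were used; the 4 input libraries have no list here. Alignment used Bowtie2 and the mm10 build, as listed per the submitters' processing notes. The program that called intervals is not named in the sources used here. Each deposited list holds whole read counts of the immunoprecipitation and of a background library, a p-value, the fold (their ratio times 1 constant per list) and an adjusted p-value. Intervals lie on a 200 bp grid and were called per library. All were kept, also those with fold under 1. Coordinates are mm10, counted from 1, and gene spans and promoters are from RefSeq (GRCm38.p6, the same build). Overlap needed 1 bp.

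Immunoprecipitated reads were summed over the intervals that overlapped a gene window or made up a merged region. Each interval counted with all its reads, also those outside the gene window. The sums were compared by edgeR 4.0.16 under R 4.3.3 (glmQLFit and glmQLFTest, Benjamini-Hochberg over all genes or regions with an interval in all 4 KDM6A libraries). The offset was the log of the scaled background, that is, background reads divided by the list constant, which the deposited fold implies; the plan had worded it as a product, and that version is given among the alternatives. DESeq2 1.42.0 and limma 3.58.1 (pseudocount 0.5) were other alternatives. Exact (Clopper-Pearson) 95% intervals of a fold cover counting error only. With 2 libraries against 2, an exact permutation test cannot go below p = 0.333, so no such test was made. The edgeR step was tested on simulated data.

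Values are printed for members with an interval in at least 3 of the 5 libraries, in both libraries of 1 KDM6A group, or with the highest fold of their domain; other members are given by counts and ranges. Some genes were named after their values were seen. The members and gene lists were chosen with earlier results of these data known.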

Additional observations from a re-analysis of the deposited data

How the results depend on the processing

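No imprinted gene or region was called between MTX and control under any alternative, and 110 of 134 alternative values of their log2 fold changes kept their sign. Counting only the 1 kb around gene ends left 2 and 1 members in the MTX libraries, 8 and 4 in the control libraries, 3 in the IgG library and 0 in both control and neither MTX library. The better 50% of each list left 7 and 5 in the MTX libraries, 7 in control library 2 and 3 in the IgG library, and lists of equal length left 14 in control library 1. For these cuts the shares over all protein-coding genes were not computed. Leaving out 1 library at a time gave 0 to 3 members in MTX cells only, 4 to 10 in control cells only, 1 to 6 called genes and 0 to 22 called regions, with 22 after leaving out control library 2. A fit with the replicate number as a block called 3 genes and 1 region, none at a member; samples of the same number deviated together with a correlation of 0.025 over genes and 0.0076 over regions, so the numbers are not shown to pair the samples. Without IgG-overlapping intervals, Zdbf2 was at −0.0081 and Ddc at 0.14. Without the background offset (TMM), Kcnq1 was at −0.10 and the regions on chromosome 11 that start at 11837801, 11930801, 11974001 and 12038001 were at 0.23, −0.47, 0.020 and 0.36. With the list constant as a multiplier, as the plan had worded the offset, the median of all genes was 0.14 in place of −0.03. The main offset departs from that wording, and the multiplier was added to the alternatives after seeing the data. With it, Ppp1r9a was at −0.037, Ddc was at 0.14, and the regions starting at 11792601, 11837801, 11974001 and 12038001 were at 0.11, 0.016, 0.15 and 0.12. Leaving out 1 library at a time gave, where a sign turned, −0.087 to 0.22 at Zdbf2, −0.023 to 0.11 at Kcnq1, −0.12 to 0.046 at Ddc, −0.055 to 0.070 at Grb10, and at the regions starting at 11837801, 11961601, 11974001 and 12038001 −0.35 to 0.031, −0.087 to 0.19, −0.063 to 0.047 and −0.17 to 0.054. The cause was not tested. Depth limits single intervals: at 46 over 15 reads, counting error alone allows folds of 2.22 to 7.82.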
